A study of Mus musculus with 16 samples.

Results

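The comparison described here sets MHCII-high against MHCII-low macrophages of the mouse heart, 4 single-colour Agilent arrays of each, 8 of the 16 arrays in the series. The arrays were chosen by their titles alone, with no measured value used. Hearts of C57BL/6 mice that had received no treatment were minced and digested, and live cells were sorted. Both gates took CD45+ MerTK+ CD64+ cells that lacked Ly6c and CCR2. The MHCII-high gate then took MHCII-high, CD11c-low cells, and the MHCII-low gate took MHCII-low cells without CD11c. The other 8 arrays held CCR2-high, MHCII-high cardiac macrophages and blood Ly6c-high monocytes. Each sample gave 1 ng of RNA, labelled with Cy5. The labels give neither the age nor the sex of the mice, nor whether replicates came from separate or pooled animals, so p-values measure the spread between these samples, which may in part be technical.

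Macrophages settle in the heart as sessile phagocytes that clear dying cells and sample antigen. MHC class II molecules present peptides from engulfed material to CD4 T cells. The α and β chains assemble with the invariant chain Cd74, which blocks the groove until lysosomal proteases trim it, and H2-DM then exchanges the remaining fragment for peptide. The coactivator Ciita switches these genes on together by docking to factors bound at X and Y boxes in their promoters. Cardiac macrophages with little surface MHCII are known for scavenger receptors and other genes of long-resident tissue macrophages.

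Levels below are log2 signals relative to the 75th percentile of the same array, so 0 is the level that the brightest spots exceed. Replicate number coincided with slide, and each slide carried 1 array of every population. Differences are MHCII-high minus MHCII-low, fitted with slide as a block in a limma model that drew its spread per gene from all 16 arrays, and errors of differences are standard errors. A gene was called at a Benjamini-Hochberg adjusted p under 0.05. Every MHCII-high array sat at position 2 of its slide and every MHCII-low array at position 3, so array position and population cannot be told apart. Between 58.1% and 69.3% of the spots exceeded background clearly on these 8 arrays. Their 75th percentiles lay between 941 and 1660 in scanner units, with no saturated spot. Correlations between arrays of a population ran from 0.928 to 0.978 for MHCII-high and from 0.910 to 0.970 for MHCII-low.

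MHCII-high and MHCII-low macrophages differed in few genes beyond the spread between arrays. Of 21897 genes and unnamed features tested, 77 were called, which is 0.352%. In MHCII-high macrophages 50 were higher (0.228%) and 27 were lower (0.123%). The genes with raised signal covered antigen presentation, Il1b, the receptors Axl and Clec7a, 2 matrix metalloproteinases and the transcription factor Runx3. Those with reduced signal included the ficolin Fcna, the scavenger receptor Colec12, the iron exporter Slc40a1, leukotriene C4 synthase Ltc4s, and the calcium-binding genes S100a4, S100a6, Anxa1 and Anxa2. All 77 had the same sign on all 4 slides, as did 20.4% of all features. Arrays of the 2 populations did not overlap in 41 of the 50 higher and 23 of the 27 lower genes, against 1.16% and 1.19% of all features, or 2.35% in either direction. The median difference over all features was 0.00. In sorted cells measured in bulk, fewer cells of a kind and less RNA per cell cannot be told apart.

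**Figure D1:**
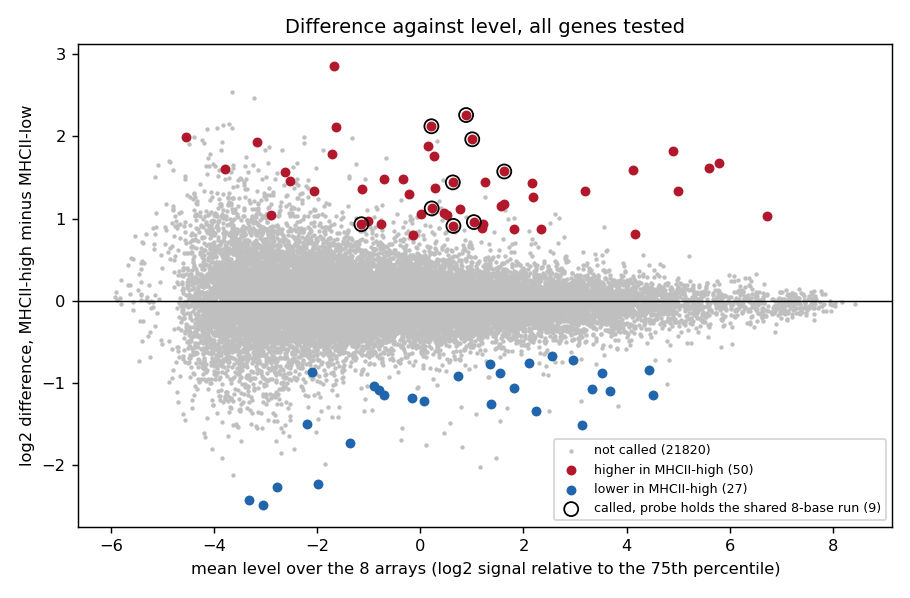
Each point is 1 of 21897 genes or features. The horizontal axis is its mean level over the 8 arrays (log2 signal relative to the 75th percentile of the array) and the vertical axis its log2 difference, MHCII-high minus MHCII-low. The 50 higher genes (red) and 27 lower genes (blue) span the range of levels, and open circles mark the 9 called genes whose probes share an 8-base run.

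The calls rested on the spread estimated over all 4 populations. With only the 8 arrays in the fit, no gene reached an adjusted p under 0.05 in limma, the lowest being 0.217, while 2132 genes had an unadjusted p under 0.05 and all 77 were among them (1946 genes, 8.89%, in the fit of 16 arrays). Without the slide block 16 genes were called. Leaving out any 1 of the 8 arrays gave 28 to 45 calls, of which 26 to 38 were among the 77. In all 8 of these fits 24 genes were called. Of the 77, 21 were called in none of the 8. They include Ciita, Clec7a, Klra2, Bmf, Pmaip1, Mmp13, Fcna, Anxa2, Vcl, Ctsd, Rhoj, Akr1b8 and Prkar2b. Leaving out a whole slide gave 7, 0, 9 and 10 calls for slides 1 to 4, of which 3, 0, 9 and 10 were among the 77. No call below was therefore kept in limma when slide 2 was left out, a fit with 1758 genes at an unadjusted p under 0.05. H2-Ab1, Cd74, Runx3, Colec12, Ltc4s and S100a4 were called in none of the fits without a slide. Axl, Il1b, H2-DMa and S100a6 were called in 1 of them each.

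The gate genes were read first, as a check of the labels and not as a finding. H2-Ab1, the β chain of I-A, stood at 5.94, 5.74, 5.68 and 5.89 on the MHCII-high arrays of slides 1 to 4 and at 4.26, 3.64, 3.32 and 4.75 on the MHCII-low arrays. The highest MHCII-low array lay well under the lowest MHCII-high array. Its difference was 1.82 ± 0.24 (adjusted p = 0.00811), a 3.52-fold higher signal. The α chain H2-Aa differed by 1.67 ± 0.25 (adjusted p = 0.0174) and the I-E β chain H2-Eb1 by 1.62 ± 0.23 (adjusted p = 0.0129). Itgax, which encodes CD11c, pointed the way of the gates at 1.98 ± 0.43, with levels of 0.69, -0.82, -0.42 and -0.82 in MHCII-high and -1.15, -1.72, -2.88 and -3.53 in MHCII-low, but did not pass the test (adjusted p = 0.114). Ccr2 was low in both, with means of -3.25 ± 0.52 and -3.86 ± 0.76 (SD, n = 4) against 0.61 ± 0.18 in the CCR2-high macrophages. The shared gate genes Ptprc, Mertk and Fcgr1 differed by 0.29, -0.11 and 0.12, none past the test. In the deposited value table, whose columns match arrays of other samples, the H2-Ab1 difference under the table's own labels was 0.27. No gene was called there, with 630 at an unadjusted p under 0.05. The scanner values and their labels were set for the comparison because of this column mismatch, not because of these differences.

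Beyond the 3 chains read with the gate genes, 4 further genes of the class II pathway were higher in MHCII-high macrophages. Of the 17 measured members of the class II and peptide-loading list, 7 were called higher and none lower, with a median difference of 0.81. Over all features 0.228% were called higher and 0.123% lower. The 3 chains read with the gate genes are among the 7. H2-Ea and Rfxap were too dim to test. H2-DMa, the α chain of the peptide exchanger H2-DM, stood at 5.75, 5.38, 5.82 and 5.72 in MHCII-high and at 4.51, 3.86, 4.22 and 4.73 in MHCII-low macrophages. The arrays did not overlap, and the difference was 1.34 ± 0.14 (adjusted p = 0.00354). H2-DMb1, its β chain, stood at 5.04, 4.64, 5.24 and 4.78 and 3.50, 2.91, 3.30 and 3.63, again without overlap (1.59 ± 0.17, adjusted p = 0.00354). A second, dimmer H2-DMb1 probe, well above background on all 8 arrays, differed by -0.14, so the H2-DMb1 call rests on its brighter probe. The paralog H2-DMb2, close enough in sequence for probes to share signal, differed by 0.96 ± 0.25 without passing the test (adjusted p = 0.214).

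Cd74, the invariant chain, stood at 7.17, 7.08, 7.53 and 7.17 in MHCII-high and 6.27, 6.00, 5.97 and 6.61 in MHCII-low macrophages (1.03 ± 0.15, adjusted p = 0.0174). The arrays of the populations did not overlap. Ciita, the coactivator of the pathway, stood at 4.30, 4.56, 4.85 and 4.58 and 3.20, 3.97, 3.86 and 4.02 (0.81 ± 0.13, adjusted p = 0.0314), though its 60-base probe is a sequence of low complexity that holds 8 copies of 1 5-base unit. With single arrays left out the adjusted p of Ciita ran from 0.0584 to 0.118. The lysosomal members did not pass the test. Ctsl, a protease that trims the invariant chain in some cells, differed by -0.60 ± 0.22, and Ctss, the protease used for this in most antigen-presenting cells, by 0.17 ± 0.12. Ifi30, a thiol reductase that unfolds antigen, and Lgmn, an endopeptidase, differed by 0.10 and -0.12. The H2-DM antagonist chains H2-Ob and H2-Oa differed by 0.90 ± 0.26 and 0.60 ± 0.52, not past the test. The promoter factors Rfx5 and Rfxank differed by -0.07 and 0.39.

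**Figure D2:**
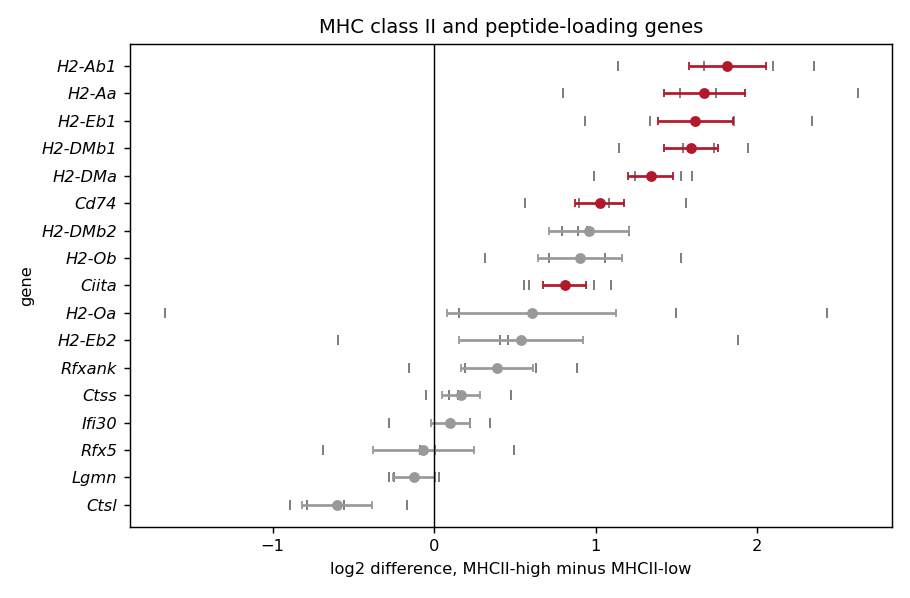
Log2 differences (horizontal axis, MHCII-high minus MHCII-low) of the 17 measured class II and peptide-loading genes (vertical axis). Points are the fitted differences with bars of 1 SE, and ticks are the 4 slides. The 7 called genes (red) range from 0.81 for Ciita to 1.82 for H2-Ab1, and genes in grey did not pass the test.

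The promoters of 3 called class II genes are shown because their chosen probes moved together and because their shared Y box core is short enough to see. RefSeq entries on GRCm38.p6 were at hand for 14 of the 19 listed genes and for 4 of the 7 called ones. The letters TGATTGG, searched on both strands in the 250 bases before each gene start, occurred in 7.23% of 32851 promoters, in 8 of those 14 genes and in 3 of the 4 called ones, H2-DMa being without them. Each line gives the 150 bases that end at the annotated gene start, 5′ to 3′ on the gene's strand, with the match in capitals. H2-Aa lies on the minus strand at chr17:34287824-34287973, H2-Eb1 on the plus strand at chr17:34305717-34305866 and H2-DMb1 on the plus strand at chr17:34153041-34153190.
H2-Aa: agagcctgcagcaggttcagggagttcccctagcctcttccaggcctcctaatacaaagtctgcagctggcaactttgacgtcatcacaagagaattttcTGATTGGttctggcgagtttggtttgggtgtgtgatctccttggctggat
H2-Eb1: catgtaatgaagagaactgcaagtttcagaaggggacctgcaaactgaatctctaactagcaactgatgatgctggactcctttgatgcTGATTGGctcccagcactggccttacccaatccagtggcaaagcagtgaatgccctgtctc
H2-DMb1: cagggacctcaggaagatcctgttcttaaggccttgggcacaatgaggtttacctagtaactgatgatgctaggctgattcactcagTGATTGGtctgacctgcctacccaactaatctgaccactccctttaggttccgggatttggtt
The match begins 50, 61 and 63 bases before the 3 gene starts. It is a match of letters, and no binding was measured here.

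Neither class I presentation nor costimulation held a called gene. All 16 measured class I genes fell short of the test, with a median of 0.04, a range of -0.19 to 0.35 and no gene at an unadjusted p under 0.05. B2m, the light chain of class I, differed by -0.12 ± 0.13, the heavy chain H2-D1 by -0.19 ± 0.14 and H2-K1 by -0.15 ± 0.11. Tap1, which pumps peptides into the endoplasmic reticulum, differed by 0.29 ± 0.20. Among 11 measured costimulatory and checkpoint ligands the median was 0.23, and 9 differences were positive, against 50.3% of all features. Of these ligands 3 were higher at an unadjusted p under 0.05, against 4.15% of all features. Cd86 and Cd80, the ligands of CD28, differed by 0.23 ± 0.27 and 0.13 ± 0.20. Slamf8 and Slamf7, surface receptors of the SLAM family, differed by 1.30 ± 0.27 and 1.05 ± 0.25 with adjusted p = 0.0893 and 0.151.

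Il1b, the proinflammatory cytokine processed by inflammasomes, was higher in MHCII-high macrophages. It stood at 2.85, 2.79, 3.07 and 2.82 on the MHCII-high arrays and 1.26, 1.55, 1.61 and 1.38 on the MHCII-low arrays, a 2.69-fold difference. No array of one population came near those of the other (1.43 ± 0.17, adjusted p = 0.00421). Il1b was called in each of the 8 fits that left out 1 array (adjusted p 0.014 to 0.0274). Of the 14 measured inflammasome and interleukin-1 genes it was the only one called, and the list median was 0.15. At an unadjusted p under 0.05, 5 of the 14 were higher, against 4.15% of all features, and none was lower. The sensor Nlrp3 differed by 0.53 ± 0.12 (adjusted p = 0.131), Casp1, which cleaves pro-interleukin-1β, by -0.03 ± 0.12, the adaptor Pycard by -0.22 ± 0.19, and the receptor antagonist Il1rn by -0.18 ± 0.27. Other cytokines were not called. Tnf differed by 0.22 ± 0.12, Tgfb1 by 0.10 ± 0.13 and Tnfsf13b, the B-cell survival factor BAFF, by 0.68 ± 0.25. Il6, Il10, Il12b and Il23a were too dim to test.

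The receptors Axl and Clec7a were also higher in MHCII-high cells. Axl, a receptor tyrosine kinase that binds Gas6 on dying cells, stood at 3.26, 2.51, 2.80 and 2.72 in MHCII-high and 2.41, 1.04, 1.38 and 1.42 in MHCII-low macrophages. On each slide it was higher in the MHCII-high array, and the arrays did not overlap (1.26 ± 0.13, adjusted p = 0.00354). Its relatives Mertk and Tyro3 differed by -0.11 ± 0.23 and -0.21 ± 0.17. Ligands of this receptor family, Gas6 and Pros1, differed by -0.38 ± 0.21 and -0.37 ± 0.38, and none of these genes was called. Axl was the only called gene of 22 measured in the list of efferocytosis and scavenger receptors, whose median was -0.12. Of the 22, 2 were higher and 2 lower at an unadjusted p under 0.05. Clec7a, the β-glucan receptor Dectin-1, stood at 1.23, 0.48, 0.87 and 1.27 and 0.37, -0.58, -0.86 and -0.54 (1.37 ± 0.25, adjusted p = 0.044). With single arrays left out the adjusted p of Clec7a ran from 0.0869 to 0.184. Among the 19 measured pattern-recognition genes no other was called. At an unadjusted p under 0.05, 2 of the 19 were higher and 3 lower, against 4.15% and 4.74% of all features. Tlr4, the receptor for bacterial lipopolysaccharide, differed by -1.45 ± 0.56 and Clec4d by -1.34 ± 0.36 without passing the test, Tlr2 by 0.16 ± 0.12, and Tlr9, which senses CpG DNA, by 0.23 ± 0.13.

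Klrb1a, a killer cell lectin-like receptor, was called higher. It stood at 0.44, -0.13, -0.20 and -1.10 in MHCII-high and -1.39, -2.79, -4.54 and -3.71 in MHCII-low macrophages (2.86 ± 0.33, adjusted p = 0.00421), with all 4 MHCII-high arrays above all 4 MHCII-low arrays, of which 3 were well above background. Klrb1 was well above background on all 4 MHCII-high arrays and on no MHCII-low array, and was at least 2.69-fold higher (adjusted p = 0.004). Such bounds set each dim array to its lowest signal called well above background, or to the probe's own signal where that was higher. The adjusted p printed with a bound is that of the fitted difference. Probes of these close relatives may share signal. Of 17 measured Klr genes, a family chosen after its values were seen, 3 were called higher, against 0.228% of all features. In 13 the difference was positive, against 50.3% of all features, and the family median was 0.38. The third called gene was Klra2, an Ly49-type receptor, at 1.18 ± 0.21 (adjusted p = 0.0396). In the list of T and NK cell markers none of 10 measured genes was called, and the median was 0.07. In that list 1 gene was lower at an unadjusted p under 0.05, against 4.74% of all features. Ncr1, which marks NK cells, differed by 0.19 ± 0.33.

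Several other genes were called higher. Dusp2, a phosphatase that switches off MAP kinases, stood at 2.61, 1.88, 1.16 and 2.25 and 0.86, 0.29, 0.31 and 0.63 (1.45 ± 0.22, adjusted p = 0.0198). Rgs1, which shortens signalling by chemokine receptors, differed by 1.30 ± 0.21 (adjusted p = 0.0246), and its arrays overlapped between slides although each slide had the same sign. Tspan33, a tetraspanin, stood at 0.18, -0.94, -0.95 and -0.62 and -1.81, -3.50, -2.49 and -2.97 (2.11 ± 0.34, adjusted p = 0.0246). Plbd1, a lysosomal phospholipase-like protein, stood at 4.33, 3.72, 3.52 and 3.86 and 3.02, 2.28, 2.18 and 2.59 (1.34 ± 0.16, adjusted p = 0.00421). Sorl1, an endosomal sorting receptor, differed by 1.45 ± 0.26 and Plcb2, a phospholipase C, by 1.07 ± 0.18. Azi2, an adaptor of the kinase TBK1, was above background on no MHCII-low array and at least 1.57-fold higher in MHCII-high macrophages (adjusted p = 0.0159). Stbd1, a glycogen-binding protein, was well above background on 2 MHCII-high arrays and no MHCII-low array. Its fitted difference was 2.00 ± 0.33 (adjusted p = 0.0315), and the size rests on signals near background. The pro-apoptotic BH3-only genes Bmf and Pmaip1 differed by 0.97 ± 0.16 and 0.81 ± 0.14 (adjusted p = 0.0279 and 0.0316). Dusp2, Rgs1, Plbd1, Sorl1, Plcb2, Bmf and Pmaip1, which lie outside the 15 largest differences, were chosen after their values were seen.

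**Figure D3:**
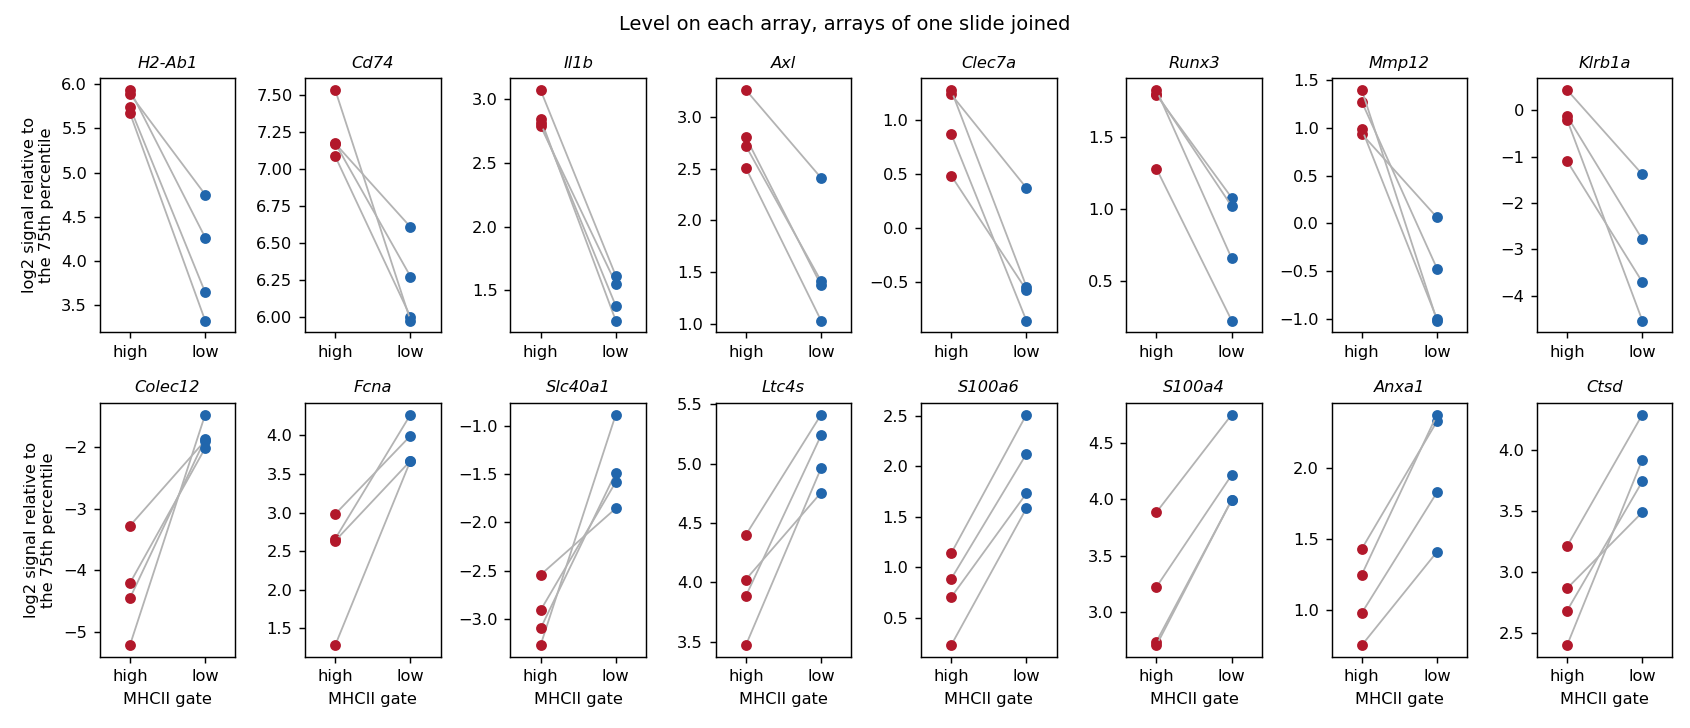
Level of 16 called genes on each of the 8 arrays (vertical axes, log2 signal relative to the 75th percentile of the array, with a scale of its own for each gene). Grey lines join the MHCII-high (red) and MHCII-low (blue) array of a slide. All lines fall from high to low in the upper 8 genes and rise in the lower 8.

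Mmp12 and Mmp13 were the called members of the growth factor and matrix list. Mmp12, the macrophage elastase, stood at 1.27, 0.94, 1.40 and 0.99 in MHCII-high and -0.47, 0.06, -1.02 and -1.01 in MHCII-low macrophages (1.76 ± 0.32, adjusted p = 0.0443). Mmp13, a collagenase, stood at -1.03, -0.70, -0.79 and -0.73 and -2.74, -2.61, -3.06 and -1.99 (1.79 ± 0.33, adjusted p = 0.0477). Neither gene's arrays overlapped, and both lay close to the threshold, with adjusted p of 0.0496 to 0.201 and 0.0578 to 0.201 when single arrays were left out. Mmp14, a membrane-bound metalloproteinase, differed by 1.17 ± 0.28 (adjusted p = 0.167), Mmp9 by 0.19 ± 0.35 and the inhibitor Timp2 by -0.10 ± 0.11. Of the 25 measured members of the list 2 were called, and the median was -0.10. At an unadjusted p under 0.05, 3 of the 25 were higher and 4 lower, against 4.15% and 4.74% of all features. Fibronectin, Fn1, differed by -1.66 ± 0.57, the platelet-derived growth factor Pdgfc by -1.01 ± 0.35 and insulin-like growth factor Igf1 by -0.36 ± 0.14, and none of these passed the test.

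Runx3 was the called transcription factor of 27 measured in the myeloid list, whose median was 0.08. At an unadjusted p under 0.05, 8 of the 27 were higher and 1 lower, against 4.15% and 4.74% of all features. Runx3 stood at 1.79, 1.28, 1.80 and 1.83 in MHCII-high and 1.08, 0.22, 1.02 and 0.66 in MHCII-low macrophages, without overlap (0.93 ± 0.13, adjusted p = 0.0125). A second Runx3 probe differed by 1.34. Its paralog Runx1 differed by 0.59 ± 0.17 (adjusted p = 0.276). The interferon regulatory factors Irf8 and Irf5 differed by 0.50 ± 0.17 and 0.30 ± 0.13, Cebpa and Cebpb by 0.32 ± 0.14 and 0.38 ± 0.21, and Spi1, the PU.1 factor of all myeloid cells, by -0.05 ± 0.12. Maf, known in resident macrophages, differed by -0.35 ± 0.18. Tle1, a Groucho-type corepressor outside the list and named after its values were seen, differed by 0.88 ± 0.12 (adjusted p = 0.00998). For 2 further Tle1 probes the differences were 1.99 and 2.84. The probe at 2.84 was well above background on 4 of the 8 arrays, so its size is uncertain.

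In the other direction, genes of resident macrophages ran lower in MHCII-high cells, but 1 of 22 measured passed the test. The median of the list was -0.52, and 21 of the 22 differences were negative, where 50.3% of all features had a positive one. Lower signal at an unadjusted p under 0.05 was found for 12, against 4.74% of all features. The list was chosen with earlier results of these data known, so these counts are a description and not a test. Fcna, a ficolin that binds microbial sugars and starts the lectin pathway of complement, stood at 2.66, 2.63, 2.98 and 1.28 in MHCII-high and 4.27, 3.67, 4.00 and 3.67 in MHCII-low macrophages. It was the called member (-1.51 ± 0.26, adjusted p = 0.0369), and slide 4 held the lowest MHCII-high array. With single arrays left out its adjusted p ran from 0.0671 to 0.149. The endothelin receptor Ednrb differed by -1.91 ± 0.47, the complement receptor Vsig4 by -1.61 ± 0.39, and the hyaluronan receptor Lyve1 by -1.30 ± 0.28, with adjusted p = 0.18, 0.167 and 0.103. Each of the 3 was lower on all 4 slides. Timd4, the phosphatidylserine receptor Tim-4, differed by -0.78 ± 0.23 and Folr2, a folate receptor, by -0.72 ± 0.35. The haptoglobin-haemoglobin receptor Cd163 and the mannose receptor Mrc1 differed by -0.41 ± 0.17 and -0.42 ± 0.20. Cbr2, Stab1, Pf4 and Selenop differed by -0.52, -0.43, -0.52 and -0.07, none called. Cd209b was too dim to test.

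**Figure D4:**
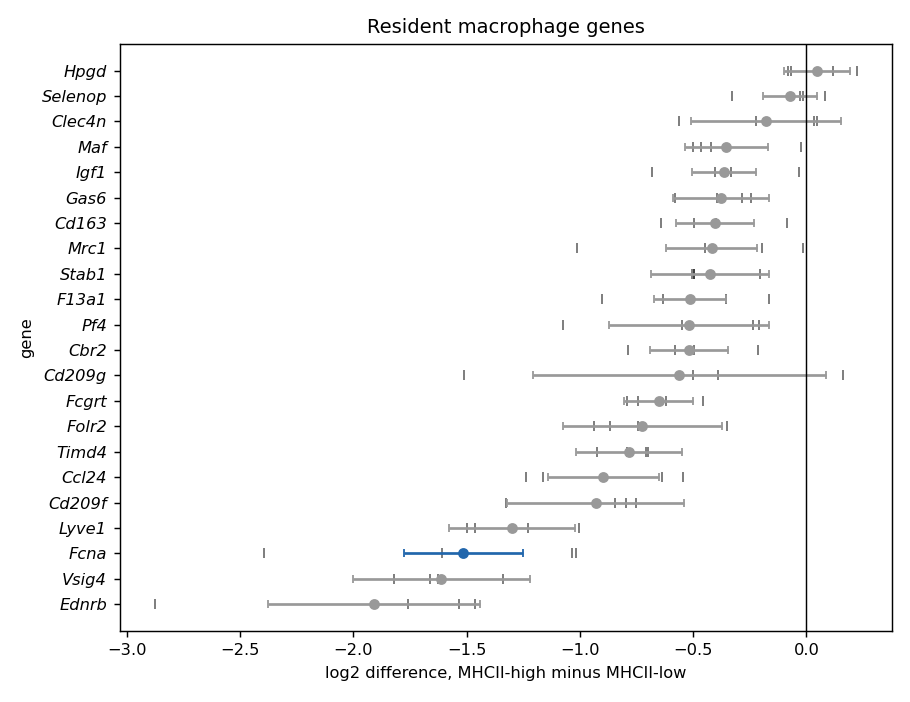
Log2 differences (horizontal axis, MHCII-high minus MHCII-low) of the 22 measured resident macrophage genes (vertical axis). Points are fitted differences with bars of 1 SE, and ticks are the 4 slides. All but Hpgd lie below 0, and Fcna (blue) is the called gene.

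Colec12, a scavenger receptor of the collectin family, was called lower. It stood at -4.46, -3.28, -5.22 and -4.21 in MHCII-high and -1.87, -1.89, -1.47 and -2.01 in MHCII-low macrophages, and 1 of 4 MHCII-high arrays was well above background against 4 of 4 MHCII-low arrays (-2.48 ± 0.31, adjusted p = 0.0055). Slc40a1, ferroportin, the exporter of iron from cells, stood at -3.27, -2.54, -3.10 and -2.91 and -0.89, -1.86, -1.49 and -1.58 (-1.50 ± 0.27, adjusted p = 0.0423), with 3 of 4 MHCII-high arrays well above background. Arrays of the populations did not overlap for either gene. Slc40a1 was the called gene of 15 in the iron and heme list, whose median was -0.10. At an unadjusted p under 0.05, 1 of the 15 was higher and 5 lower, against 4.15% and 4.74% of all features. The heme transporter Slc48a1 and the biliverdin reductase Blvrb differed by -0.58 ± 0.19 and -0.51 ± 0.17 without passing the test, and Hmox1, which breaks heme down, by -0.17 ± 0.13. The ferritin chains Fth1 and Ftl1 differed by -0.02 ± 0.11 and -0.10 ± 0.14. In the complement list Fcna was the called gene of 19, and the median was -0.16. Of the 19, 3 were lower and none higher at an unadjusted p under 0.05. The initiating chains C1qa, C1qb and C1qc differed by -0.13, -0.16 and -0.16.

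The calcium-binding genes S100a6 and S100a4 were called lower, as were the annexins Anxa1 and Anxa2. S100a6 stood at 0.88, 0.70, 1.14 and 0.23 in MHCII-high and 2.13, 1.73, 2.51 and 1.58 in MHCII-low macrophages (-1.25 ± 0.12, adjusted p = 0.00317), and S100a4, known in cell motility, at 2.74, 3.22, 3.88 and 2.71 and 3.99, 4.22, 4.75 and 4.00 (-1.10 ± 0.17, adjusted p = 0.0216). Neither overlapped between populations. Anxa1, the anti-inflammatory annexin, stood at 1.43, 0.98, 1.25 and 0.76 and 2.33, 1.83, 2.37 and 1.41. Its arrays overlapped across slides, while on each slide the MHCII-high array was lower (-0.88 ± 0.11, adjusted p = 0.00475). Anxa2 differed by -0.67 ± 0.11, the actin-capping protein Capg by -0.88 ± 0.13 and the adhesion-site protein Vcl, vinculin, by -0.91 ± 0.16 (adjusted p = 0.0317, 0.0125 and 0.0369). A second Vcl probe differed by -0.05, so the vinculin call rests on 1 of 2 probes. Other members of the families, chosen after their values were seen, were mostly not called. Of 13 measured S100a genes 2 were called lower, and 3 differences were positive, with a median of -0.35. Of 12 annexins 2 were called lower, with a median of -0.25. Over all features 0.123% were called lower and 50.3% had a positive difference. S100a4 and S100a6 are also in the marker list of Ly6c-high monocytes, where no other of the 15 measured genes was called. In that list 4 genes were lower at an unadjusted p under 0.05, against 4.74% of all features, and none was higher. The median of that list was -0.09, Ccr2 differed by 0.61 ± 0.28, and the mean level of the list was -0.84 to -0.68 on the MHCII-high arrays, -0.78 to -0.19 on the MHCII-low arrays and 4.01 to 4.40 in monocytes. The part of monocytes in the result was not tested.

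Several other genes were called lower. Ltc4s, which makes leukotriene C4, stood at 4.40, 4.02, 3.88 and 3.47 in MHCII-high and 5.41, 4.76, 5.24 and 4.96 in MHCII-low macrophages, without overlap (-1.15 ± 0.17, adjusted p = 0.016). Ctsd, the lysosomal aspartyl protease cathepsin D, stood at 3.21, 2.87, 2.40 and 2.68 and 4.29, 3.49, 3.92 and 3.74 (-1.07 ± 0.19, adjusted p = 0.0401), and a second probe differed by -0.92. Dnm1, the membrane-severing GTPase dynamin-1, differed by -1.34 ± 0.15 (adjusted p = 0.004) and its second probe by -1.41. Gypc, the membrane protein glycophorin C, differed by -1.73 ± 0.26, the GTPase Rhoj by -1.18 ± 0.21 and the water channel Aqp1 by -1.04 ± 0.14 (adjusted p = 0.0196, 0.0396 and 0.00774). Rgs7bp, which anchors RGS proteins, differed by -2.23 ± 0.26, with 3 of 4 MHCII-high arrays well above background. The protocadherin Pcdhac2 differed by -2.43 ± 0.42, with 1 of 4 MHCII-high arrays well above background, so the size rests on signals near background, as it does for Colec12. Ceacam2, a cell adhesion molecule, differed by -1.22 ± 0.17, Akr1b8, an aldo-keto reductase, by -1.14 ± 0.19 and Prkar2b, a regulatory subunit of protein kinase A, by -1.08 ± 0.18. A second Ceacam2 probe was near 0 at -0.04. Of 2 further Prkar2b probes 1 was near 0 at -0.06 and the other gave -0.96. Aqp1 and Rhoj are known from endothelium. Among 11 measured endothelial markers none was called, none had an unadjusted p under 0.05, and the median was 0.00.

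Pimreg, a mitotic regulator, stood at -2.88, -3.70, -4.96 and -4.14 in MHCII-high and -1.43, -1.82, -1.88 and -1.49 in MHCII-low macrophages, with 1 of 4 MHCII-high arrays well above background (-2.27 ± 0.34, adjusted p = 0.0193). The cell cycle list held no called gene among 17 measured, although 15 differences were negative and the median was -0.31. Over all features 50.3% of differences were positive. Ccnb2, a mitotic cyclin, differed by -0.77 ± 0.18 (adjusted p = 0.131), Birc5, survivin, by -0.79 ± 0.33, and Mki67, the proliferation marker Ki-67, by -0.31 ± 0.22. In that list 2 genes had an unadjusted p under 0.05 and lower signal, against 4.74% of all features.

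Several lists held no called gene. Chemokines had a median of 0.05 over 21 measured genes, with differences from -0.90 for Ccl24 to 1.03 for Cxcl9. At an unadjusted p under 0.05, 3 were higher and 4 lower. Over all features 4.15% were higher and 4.74% lower at that threshold, which is the background for the counts that follow. The T-cell attractants Cxcl9, Cxcl16 and Cxcl10 differed by 1.03 ± 0.26, 0.95 ± 0.22 and 0.84 ± 0.34, and Ccl6 and Pf4 by -0.33 ± 0.12 and -0.52 ± 0.35. Of 12 measured chemokine receptors, Cx3cr1, the fractalkine receptor, differed by 0.90 ± 0.28 (adjusted p = 0.359) and Cxcr4 by 0.46 ± 0.18, and 3 of the 12 were higher at an unadjusted p under 0.05. The 28 interferon-stimulated genes had a median of -0.01, with 3 higher and 1 lower at an unadjusted p under 0.05. They included Irf1 at 0.27 ± 0.11, Oas1a at -0.06 ± 0.11 and Irf7 at -0.11 ± 0.20. Immediate early and feedback genes had a median of 0.18 over 24, and 5 were higher and 1 lower at an unadjusted p under 0.05, with Jun at 0.16 ± 0.14, Fosb at 0.08 ± 0.19, Jund at 0.20 ± 0.14 and Dusp1 at 0.22 ± 0.22. Lipid-handling genes had a median of -0.08 over 19, with 1 higher and 2 lower at an unadjusted p under 0.05. Apoe, the lipid carrier, differed by -0.01 ± 0.11 and Trem2, a lipid-sensing receptor, by -0.54 ± 0.13. The alternative activation list had a median of -0.15 over 13, with none higher and 2 lower at an unadjusted p under 0.05, and with Mgl2 at 0.16 ± 0.16, Il4ra at -0.00 ± 0.10 and Folr2 at -0.72 ± 0.35. Heat shock genes, which respond to handling, had a median of 0.10 over 13, and 12 housekeeping genes had a median of -0.05, with none at an unadjusted p under 0.05 in either list. A difference short of the threshold does not show that the populations were alike.

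**Figure D5:**
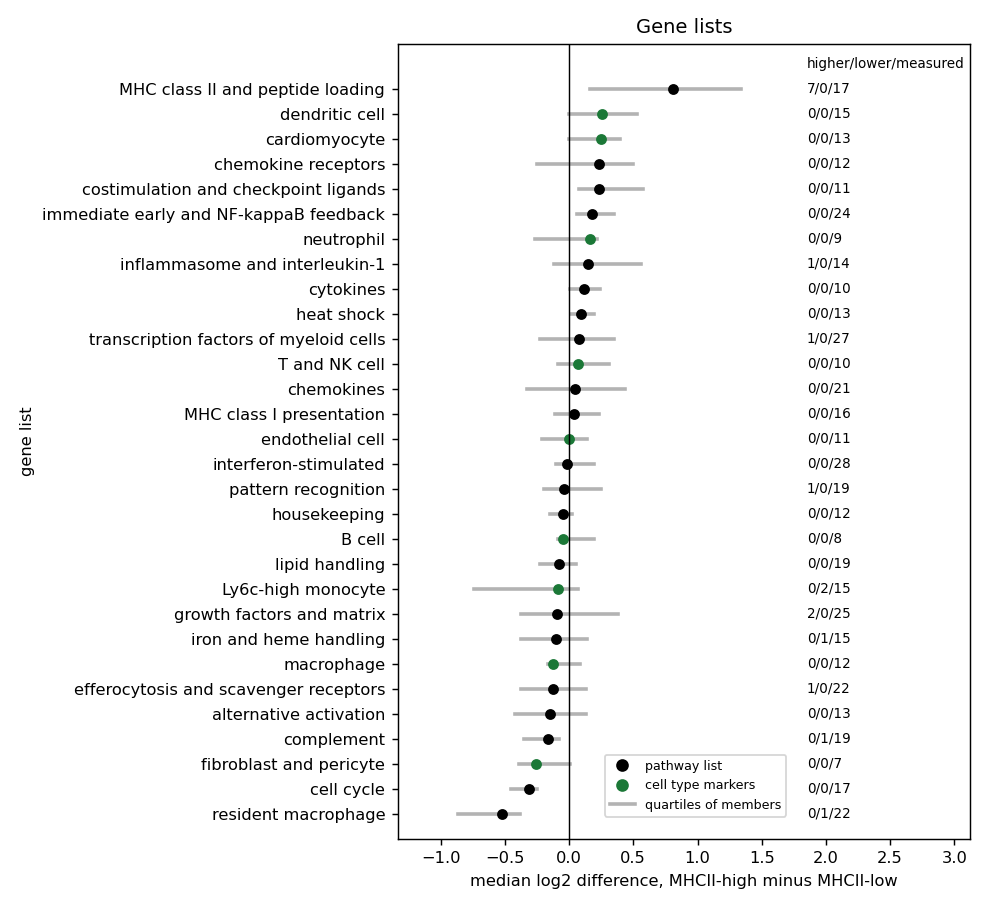
Median log2 difference (horizontal axis, MHCII-high minus MHCII-low) of the measured members of each gene list (vertical axis), in black for pathways and green for cell type markers. Grey bars span the quartiles of the members, and the numbers give genes called higher, called lower and measured. The class II list stands highest at 0.81 and the resident macrophage list lowest at -0.52.

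Markers of macrophages ran over the same range in both populations. The mean level of the 12 measured markers was 4.74 to 5.29 on MHCII-high arrays and 4.82 to 5.28 on MHCII-low arrays. No gene was called, and 1 was lower at an unadjusted p under 0.05, against 4.74% of all features. Csf1r, the receptor for macrophage growth factor, differed by -0.15 ± 0.10, Adgre1, a surface marker of mouse macrophages, by 0.07 ± 0.15, and Aif1 by 0.24 ± 0.14. Dendritic cell markers had a median of 0.25 over 15 measured, with mean levels of -1.21 to -0.87 against -1.56 to -1.11. None was called, and 3 were higher at an unadjusted p under 0.05, against 4.15% of all features. The defining dendritic cell genes Xcr1 and Clec9a were too dim to test, Zbtb46 differed by 0.06 ± 0.27 and Flt3 by 0.25 ± 0.21, and Fscn1, an actin-bundling protein, by 1.02 ± 0.23. Of cardiomyocyte markers 13 were measured and none called or at an unadjusted p under 0.05, with a median of 0.25 and mean levels of 0.43 to 0.81 against 0.28 to 0.79. Myl2 and Myl3, ventricular myosin light chains, differed by 0.25 ± 0.13 and 0.40 ± 0.32. Lists for fibroblasts and pericytes, B cells and neutrophils had medians of -0.25, -0.05 and 0.16, with 7, 8 and 9 genes measured and none called. At an unadjusted p under 0.05 stood 1 of these genes, Cd79b, against 8.89% of all features. The B-cell receptor chain Cd79b differed by 1.01 ± 0.23 (adjusted p = 0.134), while Ms4a1 was too dim to test. The part of other cells in these results was not tested.

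The 2 populations not used in the contrast place these genes further, as a description. Among the 50 higher genes the CCR2-high, MHCII-high macrophages lay nearer the MHCII-high than the MHCII-low mean in 49, and above the MHCII-high mean in 38. The monocytes lay on the MHCII-high side in 17. Mmp12 stood at 3.77 ± 0.45 (SD, n = 4) in CCR2-high macrophages, above its mean of 1.15 ± 0.22 in MHCII-high cells, and at -3.46 ± 1.04 in monocytes. Il1b stood at 3.28 ± 0.36 in CCR2-high macrophages and 0.23 ± 0.33 in monocytes. Among the 27 lower genes the CCR2-high macrophages lay on the MHCII-high side in 17, and the monocytes likewise in 17. Fcna stood at -0.07 ± 0.27 in CCR2-high macrophages, under its MHCII-high mean of 2.39 ± 0.76, and Ltc4s at 2.41 ± 0.14 against 3.94 ± 0.38. S100a6 stood at 2.03 ± 0.38 in CCR2-high macrophages and 4.28 ± 0.21 in monocytes, both above the MHCII-high mean of 0.74 ± 0.39. The genes were chosen for the difference between the CCR2-negative populations, so the counts are not a test.

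Probes of 9 called genes shared the 8-base run CACTGTCC or its reverse complement GGACAGTG. It was found after the calls were known, as the 8-base run with the largest excess among called probes, and the sequences are shown so that the run can be seen in each probe. Each line gives the part of the 60-base probe with up to 11 bases on either side of the run, 5′ to 3′, the run in capitals.
D830013O20Rik: caacacagtgtGGACAGTGccatcacctat
Slco4a1: gcagcttgtgtGGACAGTGtgtttctatgt
Cps1: aggacagctgtGGACAGTGgaattgctctc
Grin3b: ctacacggccaCACTGTCCacgacagttta
Gm8777: ttgtaatgggtCACTGTCCacacagaagcc
Prkcz: ctcaagtgggtGGACAGTGaaggtgaccct
Mybl2: tcctgttggtaCACTGTCCccacaataaaa
Slurp1: ctcaggtcactCACTGTCCaccaagcttgt
Fhit: gagagttgGGACAGTGgtggagaagca
The run was in 78 of the 21897 probes tested (0.356%), in 9 of the 77 called (11.7%), and in 9 of the 50 called higher, with none among the 27 lower. Over the 78 probes the median difference was 0.25 and 62 differences were positive (79.5%, against 50.3% of all). Slco4a1, an organic anion transporter, stood at 1.05, 1.54, 1.12 and 1.40 in MHCII-high macrophages and averaged -0.85 ± 0.86 (SD, n = 4) in MHCII-low macrophages (2.12 ± 0.26, adjusted p = 0.00539). Cps1, a urea cycle enzyme of liver, stood at 1.83, 2.06, 2.00 and 2.07 and -0.13, 0.24, -0.80 and 0.79 (1.97 ± 0.23, adjusted p = 0.00421). For 3 of the 9 a second probe was kept, and it differed by 0.05 for Fhit, 0.04 for Prkcz and -0.66 for Mybl2, where the chosen probes gave 0.91, 1.12 and 0.96. Without genes whose probes hold the run, 68 calls were left, 41 higher and 27 lower. The part of the shared run in these signals was not tested. Over all called genes, 19 had another kept probe, and 18 of 21 such probes had the sign of the chosen one, but 6 of the 18 lay within 0.1 of 0. Those 6 were probes of Ceacam2, Coro2a, Fhit, Prkar2b, Prkcz and Vcl, where the chosen probes differed by at least 0.91 in size. The 3 with the opposite sign were H2-DMb1, Mybl2 and Evc, a ciliary protein gene whose chosen probe gave 1.89 and whose second gave -0.06.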

How the data were processed

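Scanner output of 16 single-colour arrays was used. Per the labels and the submitters' processing notes, the authors scanned and extracted the arrays with Agilent Feature Extraction 11.5.1.1, and Partek is named without a version. Per the file headers, the deposited processed signal holds intensity values without a physical unit, from which background and a spatial trend were removed per array. The deposited value table holds log2 values made by the authors, each of whose 16 columns matched an array of another sample (r at least 0.995, against at most 0.969 under the same label), so it served only as an alternative.

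Text columns were located by content, since headings were shifted. Spots marked as outliers were left out, 110 of 39429 probes were dropped, and spots of a probe were averaged. From log2 processed signals the 75th percentile of the array was subtracted. Probes well above background on at least 4 arrays (27643) were kept, the brightest per gene was used, and 21897 genes or features were tested, of which 16554 had a symbol. RefSeq accessions named 27441 probes, symbols or synonyms 3933, and 7945 kept the name in the files. limma 3.58.1 in R 4.3.3 (lmFit, eBayes) fitted population and slide to all 16 arrays, leaving 9 residual degrees of freedom. P-values are two-sided with Benjamini-Hochberg adjustment over all features. Replicate numbers paired the samples, since the arrays of a number shared a slide. Deviations from the population means correlated between the MHCII-high and MHCII-low arrays of a number at 0.604, 0.482, 0.226 and 0.441. The highest correlation of each MHCII-high array with an MHCII-low array of another number was 0.037, 0.375, 0.054 and 0.427. For numbers 2 and 4 the matched value was thus only slightly or moderately higher. The model was tested on simulated data. The number of arrays limits the precision.

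Members and lists were chosen with earlier results of these data known. Genes named were the gate genes, the 15 largest called differences each way among genes with a symbol and 1 sign on all slides, each called list member, and up to 4 members of each list with the highest signal. Other genes were named after their values were seen. Some list members are not reported here by name. Promoters came from RefSeq (GRCm38.p6). Alternatives covered the block, the samples fitted, scaling, background correction, filters, probe choice, array weights and left-out arrays and slides. Figures were drawn with matplotlib 3.10.9.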

Additional observations from a re-analysis of the deposited data

Results flagged for a closer look

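In 4 of 166 sets of 4 arrays checked, 1 gene and 1 population each, 1 array lay far from the other 3 by Dixon's ratio. Rgs7bp read -4.26 on the MHCII-high array of slide 4, where the other MHCII-high arrays lay between -2.85 and -2.64. Runx3 read 1.28 on the MHCII-high array of slide 2, against 1.79 to 1.83 on the others. Tle1 read 3.19 on the MHCII-high array of slide 1, against 2.63 to 2.66 on the others, and 2.19 on the MHCII-low array of the same slide, against 1.79 to 1.83. In each case the slide difference kept the sign of the fitted one. Such gaps appear in about 1 in 20 sets of 4 by chance.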

How the results depend on the processing

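The number of calls changed with the samples fitted, the block and the scaling. With the replicate block, since slides pair the arrays, 77 genes were called, and with no replicate block 16, all of them among the 77. With only the 8 arrays of both populations, limma called 0 genes (2132 at an unadjusted p under 0.05). Array weights gave 173 calls, including all 77, and subtracting the median in place of the 75th percentile gave 51, all among the 77. A random block, quantile normalization, normexp, no filter on dim probes, a stricter filter and the mean over probes gave 59 to 92. Leaving out 1 array or 1 slide gave 0 to 45 calls, the 0 being slide 2 (limma, 1758 at an unadjusted p under 0.05). Of the 77 genes, 24 were called in all 8 fits without 1 array and 21 in none of them, 33 under all 3 other scalings and background corrections, and 12 under all 8 processing alternatives that kept every array. The cause of these shifts was not tested. Leaving out genes whose probes hold the shared 8-base run, an alternative chosen after seeing the data, left 68 calls.

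No called gene changed sign in any alternative other than the deposited value table under its own labels. That table gave 0 calls (630 at an unadjusted p under 0.05) and 26 changes of sign: 1700097M23Rik (-0.54), Slurp1 (-0.52), NAP115468-1 (-0.50), Olfr629 (-0.46), Mybl2 (-0.26), Fhit (-0.26), Prkcz (-0.17), Cyp2c37 (-0.17), Ciita (-0.14), Gm8777 (-0.0786) and Evc (-0.0489) among genes higher above, and Anxa1 (0.0294), Akr1b8 (0.0566), S100a6 (0.0707), Ltc4s (0.0816), Anxa2 (0.0992), Ninj1 (0.11), A4galt (0.12), Gypc (0.15), Vcl (0.15), Selenbp1 (0.16), Aqp1 (0.21), Rhoj (0.23), Rgs7bp (0.24), Fcna (0.25) and Sulf2 (0.48) among genes lower above.

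Between 58.1% and 69.3% of spots exceeded background clearly on the 8 arrays. Colec12, Pcdhac2 and Pimreg did so on 4 of 4 MHCII-low arrays and 1 of 4 MHCII-high arrays, so the sizes of their differences are uncertain.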
